A study of Mus musculus with 8 samples.

Results

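The genes described here form the maternally expressed domain beside Igf2 and H19 on mouse distal chromosome 7, often called the Kcnq1 or Cdkn1c imprinted cluster. Every probe annotated to Ascl2, Tspan32, Cd81, Tssc4, Cdkn1c, Slc22a18, Phlda2 or Nap1l4, given here in chromosome order, was taken as a member. That gave 9 probes for the 8 genes (Tssc4 had 2), out of 25697 probes and 8747 named genes on the array, and all 9 passed the filter on detection. RNA from mouse embryonic stem (ES) cells of B6D2F1 hybrid background was measured on 8 Illumina bead arrays, 2 for each of 4 groups. The H19-labelled group is a genetically modified parthenogenetic ES line labelled as having H19 down-regulated. The Igf2-labelled group is a genetically modified parthenogenetic ES line labelled as overexpressing Igf2. The parthenogenetic group is unmodified ES cells derived from oocytes alone, and the normal group is ES cells derived from embryos. The sources used here do not give the construct behind each modification, the number of clones or the use of feeder cells. The design text calls the replicates biological without saying what separated them, so the p-values cover only how these arrays vary, which may be technical.

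Imprinted genes are expressed from only the maternal or only the paternal chromosome. In this cluster the paternal chromosome makes the long non-coding RNA Kcnq1ot1, which silences the neighbouring genes on that chromosome, so that genes such as Cdkn1c, Phlda2 and Slc22a18 are read mainly from the maternal one. Genes farther out, among them Ascl2, Cd81, Tssc4, Tspan32 and Nap1l4, are known to be imprinted chiefly in the placenta. Parthenogenetic cells carry maternal genomes only and therefore have no chromosome on which the cluster was silenced by paternal inheritance. Kcnq1 and Kcnq1ot1 themselves had no named probe and were not analysed here.

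Promoter windows, 250 bases before to 50 bases after a gene's start, were taken from RefSeq (assembly GRCm38.p6), whose table matched 6 of the 8 members. 3 are printed 5′ to 3′ because they show how unlike the promoters of neighbouring members are: Phlda2 and Slc22a18 lie next to Cdkn1c, and Cd81 lies farther out. Capitals mark matches, on either strand, to the TATA box motif written TATAAA or to the Sp1-type motif written GGGCGG. No match to one motif overlapped a match to the other in these windows.
Phlda2, chr7:143502475-143502774, minus strand: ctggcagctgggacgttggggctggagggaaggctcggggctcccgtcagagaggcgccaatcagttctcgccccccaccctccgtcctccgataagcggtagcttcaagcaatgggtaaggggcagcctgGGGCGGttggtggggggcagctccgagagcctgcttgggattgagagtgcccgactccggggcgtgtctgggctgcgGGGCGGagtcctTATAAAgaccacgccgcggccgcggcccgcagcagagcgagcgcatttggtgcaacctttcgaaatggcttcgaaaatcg
Slc22a18, chr7:143473539-143473838, plus strand: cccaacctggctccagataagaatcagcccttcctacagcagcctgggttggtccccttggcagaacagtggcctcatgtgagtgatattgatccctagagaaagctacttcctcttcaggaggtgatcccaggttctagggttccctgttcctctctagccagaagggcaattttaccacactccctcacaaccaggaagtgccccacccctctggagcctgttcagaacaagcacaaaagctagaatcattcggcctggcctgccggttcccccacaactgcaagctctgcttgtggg
Cd81, chr7:143052500-143052799, plus strand: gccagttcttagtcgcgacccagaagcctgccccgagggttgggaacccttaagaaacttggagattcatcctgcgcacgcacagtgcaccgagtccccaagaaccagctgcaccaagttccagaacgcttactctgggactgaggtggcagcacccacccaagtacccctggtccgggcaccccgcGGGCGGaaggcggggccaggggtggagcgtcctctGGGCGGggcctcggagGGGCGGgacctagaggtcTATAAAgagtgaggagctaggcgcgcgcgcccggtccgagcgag
The Phlda2 window held 26 CpG dinucleotides, more than 83.1% of 32851 RefSeq promoter windows of this length, with TATAAA 30 bases before the start and 2 GGGCGG. The Slc22a18 window held 2 CpG, more than 14.1% of windows, and neither motif. The Cd81 window held 23 CpG, 3 GGGCGG and TATAAA 6 bases after the start. The median window held 7 CpG (quartiles 3 and 20). TATAAA occurred in 13.6% of all windows and GGGCGG in 35.7%. Among the other members matched, the Ascl2 and Tssc4 windows each held 23 CpG and the Tspan32 window held 2.

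The arrays were alike in brightness, with median intensities of 172.1 to 196.7 units and 47.1% to 49.5% of probes detected (detection p-value under 0.05). The 2 normal arrays stood apart from each other: they correlated at 0.961 and differed by more than 1 log2 unit at 1027 probes. The pairs of the other groups correlated at 0.995 to 0.996 and differed so at 20 or 21 probes. All 9 ES cell markers were detected on all 8 arrays, and their mean log2 level was 12.79 to 13.05. Igf2 had log2 levels of 15.61 and 15.49 on the Igf2-labelled arrays, against 15.58 and 15.62 on the parthenogenetic arrays. The difference was -0.05 with a 95% interval of half-width 1.31. That leaves room for a change in either direction, so these values neither bear out the label of the Igf2-labelled line nor go against it. Igf2 also lay near the bright end of the scale, where the ES cell marker Dppa5a read 15.93 to 15.98 on the 8 arrays. A rise in Igf2 may therefore register only in part. H19 was not analysed here, so the H19 label has no check. All levels below are background-corrected, quantile-normalized log2 intensities, and a difference of 1 on this scale is a doubling of normalized intensity. A gene is said to have risen or fallen only where the limma adjusted p, over the 12932 probes tested, was under 0.05.

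Cdkn1c, which encodes the cyclin-dependent kinase inhibitor p57 and restrains cell division in embryonic tissues, had the clearest pattern. Its log2 level was 9.89 and 9.80 on the H19-labelled arrays, 10.50 and 10.34 on the Igf2-labelled arrays, 11.38 and 11.44 on the parthenogenetic arrays, and 10.17 and 10.97 on the normal arrays. Parthenogenetic cells were highest, H19-labelled cells were lowest, and the normal pair spanned the Igf2-labelled pair. Phlda2, a small pleckstrin-homology protein known to limit placental growth, had log2 levels of 11.62 and 11.56 on the H19-labelled arrays, 11.42 and 11.35 on the Igf2-labelled arrays, 12.84 and 12.80 on the parthenogenetic arrays, and 10.64 and 12.40 on the normal arrays. Both modified lines lay below both parthenogenetic arrays, and the normal pair spanned the modified lines from above and below.

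Slc22a18, a membrane transporter gene lying between Cdkn1c and Phlda2, had log2 levels of 8.40 and 8.22 in H19-labelled cells, 8.53 and 8.49 in Igf2-labelled cells, 8.73 and 8.73 in parthenogenetic cells, and 7.72 and 8.39 in normal cells. The parthenogenetic pair was again highest, the Igf2-labelled pair next, and the H19-labelled and normal pairs overlapped. Ascl2, a basic helix-loop-helix factor needed for the spongiotrophoblast of the placenta, was near the detection limit, at 7.575 and 7.003 in H19-labelled cells, 7.16 and 6.64 in Igf2-labelled cells, 6.94 and 6.50 in parthenogenetic cells, and 6.25 and 7.03 in normal cells. It was detected on both arrays of each modified line and on 1 array of each other group. Its groups overlapped except that both H19-labelled arrays lay above both parthenogenetic ones.

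Among the tetraspanin genes, Cd81 encodes a broadly expressed cell-surface scaffold protein and Tspan32 a protein known mainly from blood cells. The log2 level of Cd81 was 14.69 and 14.73 in H19-labelled cells, 14.98 and 14.98 in Igf2-labelled cells, 15.11 and 15.06 in parthenogenetic cells, and 15.04 and 14.46 in normal cells. The parthenogenetic arrays were highest and the Igf2-labelled arrays next, while the normal pair spanned both modified lines. Tspan32 had log2 levels of 7.05 and 6.69 in H19-labelled cells and 6.64 and 6.76 in Igf2-labelled cells, and was detected on all 4 of these arrays. On the parthenogenetic arrays, at 6.45 and 6.07, and on the normal arrays, at 6.18 and 6.41, it was not above background. Tspan32 thus passed the detection filter only through the modified lines, where it was higher. Its p-values against parthenogenetic or normal cells are therefore not separate from that filter.

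The remaining members differed little. Tssc4, known in human cells for a part in assembling a splicing particle, read 9.41 and 9.31 in H19-labelled cells, 9.51 and 9.32 in Igf2-labelled cells, 9.33 and 9.54 in parthenogenetic cells, and 9.39 and 9.32 in normal cells with the probe ILMN_2460043. The second probe, ILMN_2501601, read 7.96 and 7.70 in H19-labelled cells, 7.92 and 7.91 in Igf2-labelled cells, 8.11 and 8.30 in parthenogenetic cells, and 7.71 and 7.92 in normal cells. On the second probe both parthenogenetic arrays lay above the other 6, while on the first all groups overlapped, so the probes disagree on whether the parthenogenetic level was higher. Nap1l4, a histone chaperone gene at the edge of the cluster, was the flattest: it had log2 levels of 13.31 and 13.30 in H19-labelled cells, 13.31 and 13.20 in Igf2-labelled cells, 13.26 and 13.41 in parthenogenetic cells, and 13.21 and 13.37 in normal cells.

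**Figure D1:**
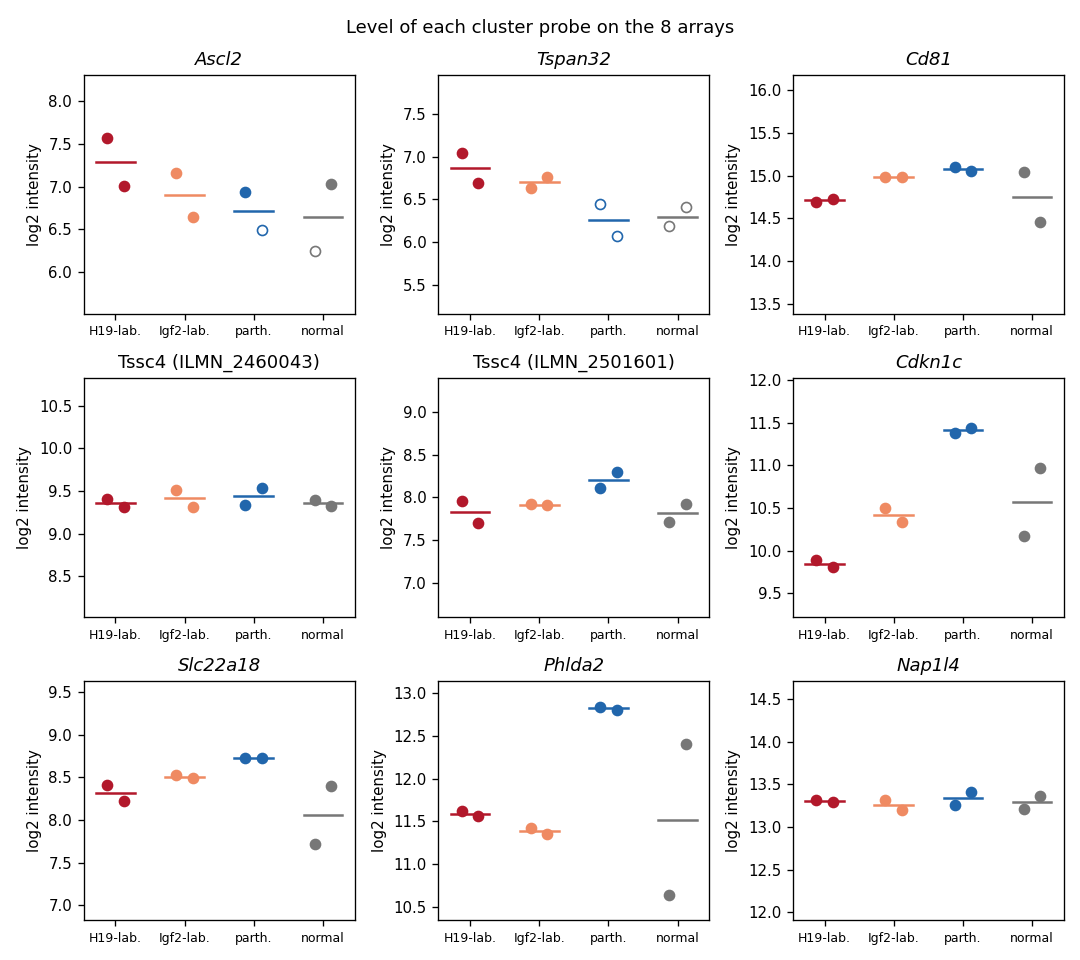
Normalized log2 intensity of each cluster probe on the 8 arrays, with each group's mean as a line and open circles where the probe was not detected; every panel spans the same number of log2 units. For Cdkn1c and Phlda2 the parthenogenetic arrays are highest, for Nap1l4 all groups overlap, and the normal arrays lie far apart for Phlda2 (10.64 and 12.40).

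The first comparison asks how the cluster differed in parthenogenetic cells labelled as having lowered H19. Cdkn1c fell in H19-labelled cells, to 9.85 ± 0.06 against 11.41 ± 0.04 in parthenogenetic cells (log2 mean ± SD, n = 2 each). The difference was -1.56 (SE 0.24, 95% interval -2.14 to -0.99, limma adjusted p = 0.0229), so the H19-labelled signal was 0.338 of the parthenogenetic one. Cdkn1c was the only member probe of 9 called, where 4.35% of all probes tested were called and 1.83% were called lower. Because these are bulk samples, fewer cells of a type and less RNA per cell cannot be told apart. The call was lost without either H19-labelled array, either Igf2-labelled array or either parthenogenetic array (adjusted p 0.0670 to 0.191), although the difference stayed between -1.61 and -1.52.

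Phlda2 was also lower on both H19-labelled arrays, with a difference of -1.23 (SE 0.49, 95% interval -2.39 to -0.07, limma adjusted p = 0.194). The SE rests on a spread shared over all 4 groups, and the normal arrays of Phlda2 had an SD of 1.24. Slc22a18 had a difference of -0.41 (adjusted p = 0.291), Cd81 of -0.37 (adjusted p = 0.279) and the second Tssc4 probe of -0.37 (adjusted p = 0.181), each with both H19-labelled arrays below both parthenogenetic ones. In the other direction, Tspan32 was at least 1.27-fold higher in H19-labelled cells (adjusted p = 0.116), and Ascl2 had a difference of 0.57 (adjusted p = 0.351). The first Tssc4 probe differed by -0.08 and Nap1l4 by -0.03. By their means 7 of 9 member probes were lower, against 47% of all probes. Without overlap 5 of 9 were lower, against 32.7% of all probes, and the median difference was -0.37 for members and 0.02 for all probes.

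Leaving out both normal arrays, which this comparison does not use, changed the count of calls. Then 6 of 9 member probes were called, with 33.2% of all probes called. Under that fit Cdkn1c (limma adjusted p = 3.32e-04), Phlda2 (4.42e-04), Cd81 (0.00876), Slc22a18 (0.0126) and the second Tssc4 probe (0.0478) fell in H19-labelled cells. Tspan32 rose (limma adjusted p = 0.0330), but it entered the test only through the modified lines, so this call is not separate from the detection filter. The differences themselves are the same in both fits.

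**Figure D2:**
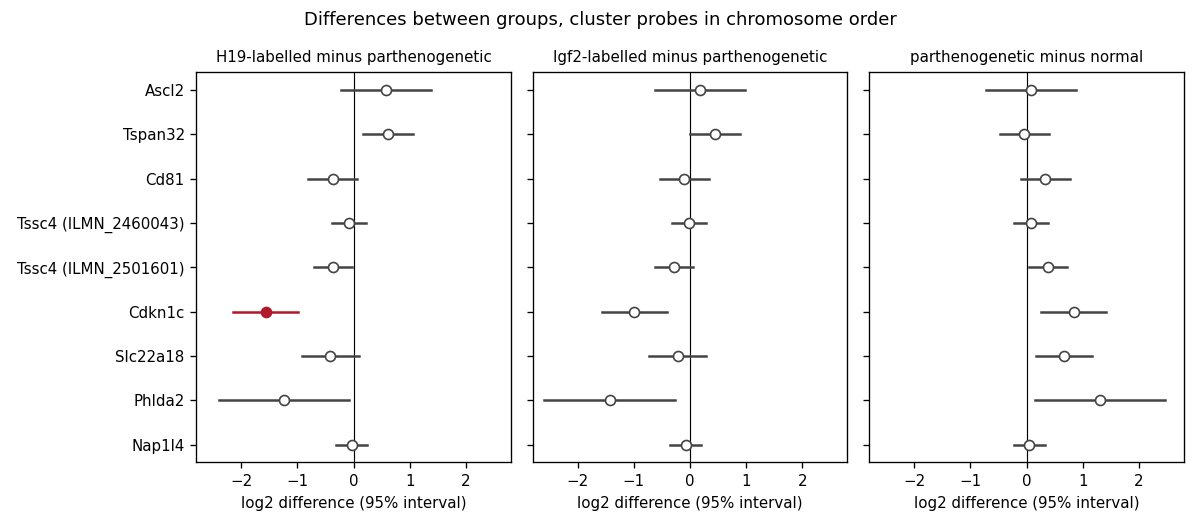
Log2 differences of the 9 cluster probes with 95% intervals, in chromosome order from top to bottom, for H19-labelled minus parthenogenetic, Igf2-labelled minus parthenogenetic and parthenogenetic minus normal; a filled red point marks a limma adjusted p under 0.05. Only Cdkn1c in the first panel is filled (-1.56), and Phlda2 has the widest intervals.

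In Igf2-labelled cells the same pair of growth-limiting genes was lower, and neither passed the threshold. For Phlda2 the means were 11.39 ± 0.05 in Igf2-labelled cells and 12.82 ± 0.03 in parthenogenetic cells (SD, n = 2 each), a difference of -1.43 (SE 0.49, limma adjusted p = 0.314). Cdkn1c had a difference of -0.99 (SE 0.24, 95% interval -1.57 to -0.42, adjusted p = 0.163). None of the 9 member probes was called, where 0.541% of all probes were called; at an unadjusted p under 0.05 Cdkn1c and Phlda2 passed, both lower, against 4.82% of all probes lower. The second Tssc4 probe had a difference of -0.29, Slc22a18 of -0.22 and Cd81 of -0.10, while Ascl2 had one of 0.18, Nap1l4 of -0.08 and the first Tssc4 probe of -0.02. Tspan32 was at least 1.13-fold higher in Igf2-labelled cells (adjusted p = 0.450). By their means 7 of 9 member probes were lower, against 52.5% of all probes, and 5 of 9 were lower without overlap, against 29.2%. Without both normal arrays Phlda2 (limma adjusted p = 5.27e-04) and Cdkn1c (0.00310) fell in Igf2-labelled cells, where 9.7% of all probes were called.

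**Figure D3:**
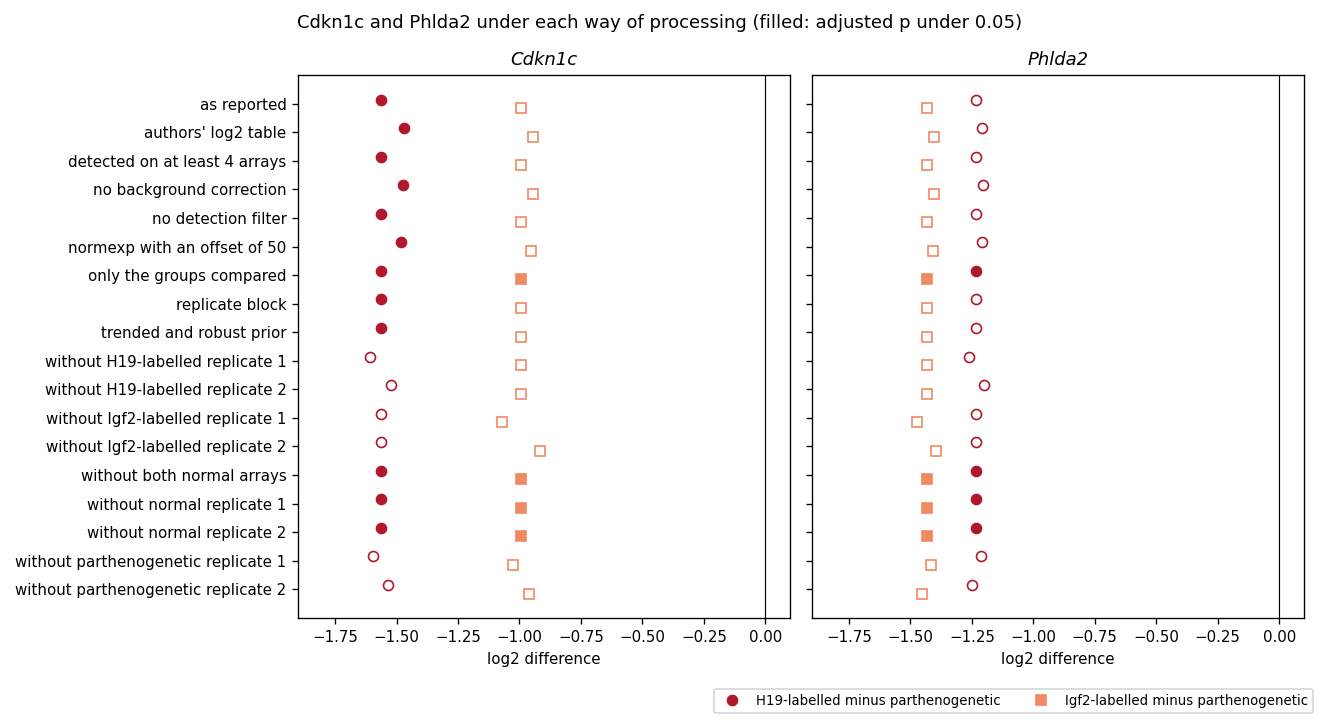
Log2 difference of Cdkn1c and Phlda2 against parthenogenetic cells under each way of processing, for H19-labelled cells (circles) and Igf2-labelled cells (squares); filled symbols mark a limma adjusted p under 0.05. The size of each difference moves little (Cdkn1c in H19-labelled cells from -1.61 to -1.47), while the calls change with which arrays enter the fit.

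The modified lines were then set against each other. None of the 9 member probes was called between H19-labelled and Igf2-labelled cells, where 0.201% of all probes were called by limma, and 0 of 9 had an unadjusted p under 0.05, against 13.9% of all probes. Cdkn1c was lower on both H19-labelled arrays than on both Igf2-labelled ones, with a difference of -0.57 (95% interval -1.15 to 0.0038, adjusted p = 0.359). Without both normal arrays this difference was called (adjusted p = 0.00728), as was that of Cd81 at -0.27 (adjusted p = 0.0397), where 20.6% of all probes were called. For Phlda2 the difference was 0.20 with a 95% interval of -0.96 to 1.36, which leaves room for a change in either direction. The other member probes had differences of -0.19 (Slc22a18) to 0.39 (Ascl2).

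The parthenogenetic and normal cells differ in whether a paternal genome is present. Cdkn1c, Slc22a18 and Phlda2 were each higher on both parthenogenetic arrays than on both normal arrays, with differences of 0.84 for Cdkn1c (SE 0.24, limma adjusted p = 0.358), 0.67 for Slc22a18 (adjusted p = 0.386) and 1.30 for Phlda2 (SE 0.49, adjusted p = 0.439). Cd81 had a difference of 0.34 (adjusted p = 0.517) and the second Tssc4 probe one of 0.39 (adjusted p = 0.432), also without overlap. Ascl2 and the first Tssc4 probe had differences of 0.08, Nap1l4 had one of 0.05, and Tspan32 was not above background in either group. None of the 9 member probes was called, where 0.108% of all probes were called. At an unadjusted p under 0.05, 4 of 9 member probes were higher, against 5.34% of all probes; without overlap 5 of 9 were higher, against 17.7%. By their means 8 of 9 were higher, against 48.3% of all probes.

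These values depend on which normal array is used. Without normal replicate 1 the parthenogenetic minus normal difference was 0.44 for Cdkn1c, 0.33 for Slc22a18, 0.42 for Phlda2 and 0.63 for Cd81, and all 4 were called, with 40.2% of all probes called. Without normal replicate 2 it was 1.24 for Cdkn1c, 1.01 for Slc22a18 and 2.18 for Phlda2, and these 3 were called, with 0.874% of all probes called. Cd81 then differed by 0.05 (adjusted p = 0.827). In these fits the remaining normal array is assumed to vary like the other groups.

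Between the modified lines and normal cells none of the 9 member probes was called. The share of all probes called was 5.03% for H19-labelled against normal cells and 1.05% for Igf2-labelled against normal cells. In H19-labelled cells Cdkn1c had a difference of -0.73 from normal cells (limma adjusted p = 0.152), and Tspan32 was at least 1.18-fold higher (adjusted p = 0.143; 0.0463 without normal replicate 2). These 2 had an unadjusted p under 0.05, against 20.6% of all probes. In Igf2-labelled cells no member probe had one, against 15.8% of all probes, and the differences lay between -0.15 (Cdkn1c) and 0.45 (Slc22a18). The H19-labelled minus normal difference of Cdkn1c was -1.12 without normal replicate 1 (adjusted p = 0.00121) and -0.33 without normal replicate 2 (adjusted p = 0.0594). For Phlda2 the direction turned with the normal array used: the H19-labelled minus normal difference was -0.81 without normal replicate 1 (adjusted p = 0.00208) and 0.95 without normal replicate 2 (adjusted p = 0.00127). The Igf2-labelled minus normal difference of Phlda2 was -1.01 without normal replicate 1 (adjusted p = 5.96e-04) and 0.75 without normal replicate 2 (adjusted p = 0.0110). Cdkn1c in Igf2-labelled cells also turned, at -0.55 (adjusted p = 0.00844) without normal replicate 1 and 0.24 (adjusted p = 0.219) without normal replicate 2. So did Cd81 in H19-labelled cells, at 0.25 (adjusted p = 0.0661) without normal replicate 1 and -0.33 (adjusted p = 0.0313) without normal replicate 2, and in Igf2-labelled cells, at 0.52 (adjusted p = 0.00482) and -0.06 (adjusted p = 0.737) in the same fits. Slc22a18 turned in H19-labelled cells, at -0.08 (adjusted p = 0.594) without normal replicate 1 and 0.59 (adjusted p = 0.00828) without normal replicate 2. In Igf2-labelled cells it was 0.11 (adjusted p = 0.414) without normal replicate 1 and 0.78 (adjusted p = 0.0137) without normal replicate 2. Without normal replicate 1 these fits called 30.5% of all probes for H19-labelled and 41% for Igf2-labelled against normal cells, and without normal replicate 2 they called 30.6% and 7.01%.

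Beyond the cluster, 13 of 31 other listed genes of distal chromosome 7 were measured, and none of the 13 was called in any of the 6 comparisons. In H19-labelled against parthenogenetic cells 10 of 13 were lower by their means, with a median of -0.31 (0.01 over all 8733 genes, of which 4.24% were called). Tnfrsf22, a decoy receptor gene on the far side of Nap1l4, had log2 levels of 11.74 and 11.73 in H19-labelled cells and 12.55 and 12.53 in parthenogenetic cells (difference -0.80, adjusted p = 0.214). Lsp1, a leukocyte actin-binding protein gene lying before Igf2, had levels of 8.60 and 8.59 in H19-labelled cells and 9.34 and 9.41 in parthenogenetic cells (difference -0.78, adjusted p = 0.367). Igf2 itself, at 14.98 and 14.94 in H19-labelled cells and 15.58 and 15.62 in parthenogenetic cells, had a difference of -0.64 (adjusted p = 0.532). Each of these 3 genes was lower on both H19-labelled arrays, and each was lowest of all on normal replicate 2, at 11.27 for Tnfrsf22, 7.79 for Lsp1 and 13.63 for Igf2. That is unlike Cdkn1c and Phlda2, which were higher on normal replicate 2 than on replicate 1. Ctsd, Mrpl23, Cttn, Fadd, Fgf15 and Ccnd1 had differences of -0.57 to -0.21, Tnfrsf26 was not above background in H19-labelled cells, and Fgf4 (0.84), Cars (0.70) and Dhcr7 (0.47) were higher by their means. Cars was near background and was detected on both arrays of a group only in the modified lines. Its difference is therefore not separate from the detection filter.

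In Igf2-labelled against parthenogenetic cells 10 of the 13 were lower by their means, with a median of -0.09. Fgf15, a secreted growth factor gene, had the lowest difference of these at -0.88 (adjusted p = 0.0825). In parthenogenetic against normal cells 10 of 13 were higher by their means, with a median of 0.24. The largest of these differences was that of Igf2 at 0.97 (adjusted p = 0.524), and Igf2 overlapped between those groups, with normal replicate 1 at 15.62.

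**Figure D4:**
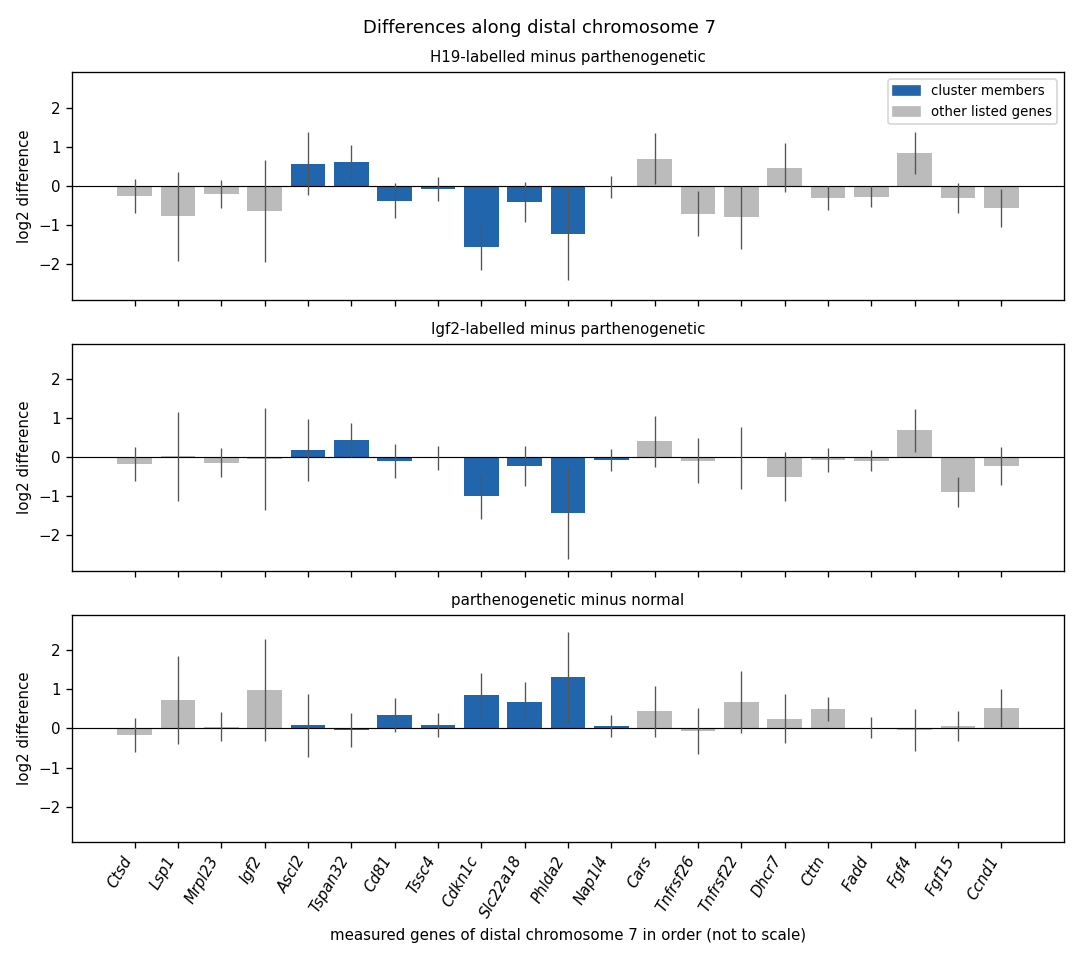
Log2 differences, with 95% intervals, of the measured genes of distal chromosome 7 in chromosome order (evenly spaced, not to scale), cluster members in blue and other listed genes in grey; Tssc4 is shown by its brighter probe. Cdkn1c and Phlda2 have the lowest bars in the upper panels (-1.56 and -1.23 in H19-labelled cells; -0.99 and -1.43 in Igf2-labelled cells), with Slc22a18 between them at smaller values.

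Markers of fibroblasts, cells often used as feeders for ES cultures, moved with several of these results. Of 22 listed markers 18 were measured, and their mean log2 level was 10.90 and 10.91 in H19-labelled cells, 11.46 and 11.46 in Igf2-labelled cells, 11.69 and 11.71 in parthenogenetic cells, and 11.80 and 10.31 in normal cells. All 18 were lower in H19-labelled than in parthenogenetic cells (median -0.91), 17 of 18 were lower in Igf2-labelled cells (median -0.25), and all 18 were higher in parthenogenetic than in normal cells (median 0.68). None of the 18 was called in these comparisons in the fit with all arrays, whose shared spread includes the wide normal pair. Calls of these markers without both normal arrays are not given here, so they cannot be set beside those of the cluster. In H19-labelled against parthenogenetic cells the marker median, -0.91, lay below the differences of Cd81 (-0.37), Slc22a18 (-0.41) and the second Tssc4 probe (-0.37). It was not as low as those of Cdkn1c (-1.56) and Phlda2 (-1.23). Cd81, Cdkn1c and Slc22a18 each followed the order of the mean fibroblast marker level over the H19-labelled, Igf2-labelled and parthenogenetic groups. Phlda2 did not, as its Igf2-labelled arrays lay below its H19-labelled ones. Within the normal group Cd81 was lowest on normal replicate 2, where the fibroblast mean was lowest. Cdkn1c, Phlda2 and Slc22a18 did not follow the fibroblast mean there. Each was higher on normal replicate 2, with the fibroblast mean at 10.31, than on replicate 1, with it at 11.80. The part of these cells in the differences between the other groups was not tested. Igf2 was also lowest on normal replicate 2, at 13.63, and lower on both H19-labelled arrays than on both parthenogenetic ones. The part of fibroblasts in its level was not tested either.

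**Figure D5:**
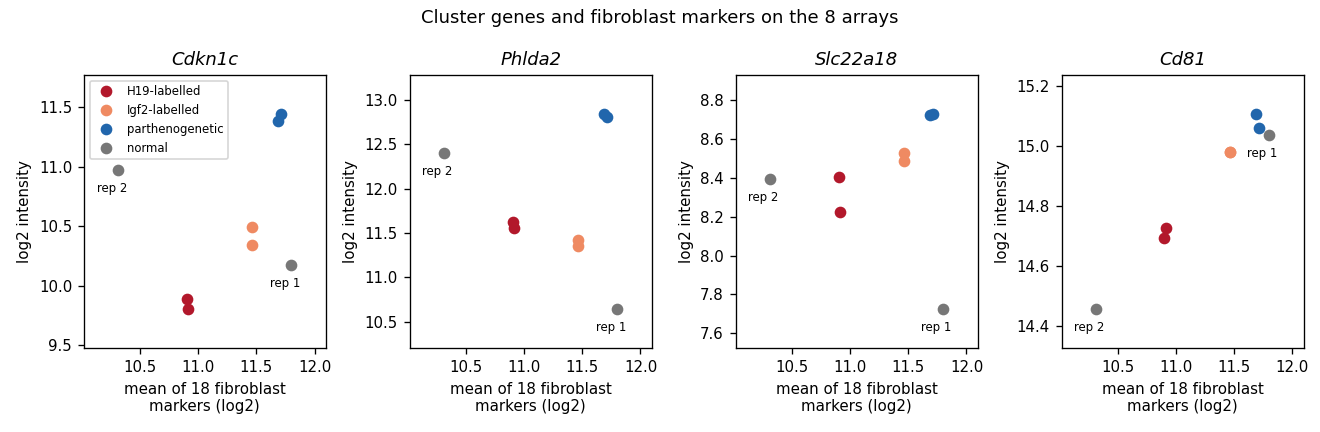
Log2 level of Cdkn1c, Phlda2, Slc22a18 and Cd81 on each of the 8 arrays against the mean log2 level of 18 fibroblast markers on the same array. Parthenogenetic arrays sit at the upper right in every panel; normal replicate 2, at a fibroblast mean of 10.31, is above normal replicate 1 for the first 3 genes and below it for Cd81.

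Endoderm markers also set normal replicate 2 apart. The mean of the 5 of 8 measured was 7.95 to 8.06 on the 6 arrays of the H19-labelled, Igf2-labelled and parthenogenetic groups, 7.97 on normal replicate 1 and 9.47 on normal replicate 2. Amn, a visceral endoderm receptor subunit, was at 10.72 on normal replicate 2 and 7.30 on normal replicate 1, and Sox7 was at 8.75 on normal replicate 2 and 6.82 on normal replicate 1. The normal levels of Cdkn1c, Phlda2 and Slc22a18 moved in the same direction, and the part of endoderm-like cells in them was not tested. Of 8 trophoblast markers 3 were measured (Eomes, Gata3 and Krt7), and none was called in any comparison. Of 5 blood markers 2 were measured, and neither was called.

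Genes acting with or against Cdkn1c were read from lists chosen with earlier results of these data known. Of 15 cyclins and cyclin-dependent kinases 8 were measured, and none was called in any comparison. In H19-labelled against parthenogenetic cells 6 of the 8 were higher by their means, with a median of 0.30. Among 7 other cyclin-dependent kinase inhibitors 6 were measured, and in that comparison none was called and their median was -0.10. By their means 2 were higher, Cdkn1b at 1.03 (limma adjusted p = 0.0627) and Cdkn2d at 0.64 (adjusted p = 0.0573), and 4 were lower, Cdkn2b at -0.87 (adjusted p = 0.264), Cdkn1a at -0.72 (adjusted p = 0.192), Cdkn2a at -0.15 and Cdkn2c at -0.05. Cdkn1b, which encodes p27, a relative of p57, was the only call in this list over the 6 comparisons. It rose in H19-labelled against normal cells, by at least 1.64-fold since it was not above background in normal cells (limma adjusted p = 0.0470). Its means there were near background, at 7.35 in H19-labelled and 6.24 in normal cells. Cdkn1b was detected on both arrays of each modified line and on 1 parthenogenetic array. It thus passed the detection filter only through lines where it was higher, and the call is not separate from that filter.

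Of 17 listed relatives of the other members 10 were measured, and Cd9, a tetraspanin gene like Cd81, was the only one called in any of the 6 comparisons. It rose by 0.77 in H19-labelled cells (limma adjusted p = 0.0189) and by 0.77 in Igf2-labelled cells (adjusted p = 0.0456) against parthenogenetic cells, and by 0.64 in H19-labelled against normal cells (adjusted p = 0.0238). Against parthenogenetic cells Cd81 had differences of -0.37 in H19-labelled and -0.10 in Igf2-labelled cells, and its difference between H19-labelled and normal cells turned with the normal array used, as given above.

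Imprinted genes outside the domain gave a background for the cluster. Of 26 maternally expressed genes elsewhere 11 were measured, one of them the fibroblast marker Dcn. In H19-labelled against parthenogenetic cells 8 of the 11 were lower by their means, against 47.9% of all genes, with a median of -0.32. Of the 11, 2 fell, where 4.24% of all genes were called. They were Atp10a, a phospholipid-flipping ATPase gene, with a mean of 7.57 in H19-labelled cells against 8.56 in parthenogenetic cells, and Igf2r, the receptor gene that clears IGF2, with 10.26 in H19-labelled cells against 10.85 in parthenogenetic cells. None of the 11 was called in Igf2-labelled against parthenogenetic cells (median -0.20) or in parthenogenetic against normal cells (median 0.19). In the latter 8 of the 11 were higher by their means, where 52% of all genes were lower. Of 28 paternally expressed genes elsewhere 11 were measured. In parthenogenetic against normal cells 8 of the 11 were lower by their means, against 52% of all genes, with a median of -0.79. The 3 that were higher were Dlk1 (0.95), Ndn (0.56) and Inpp5f (0.24), and none of these was called. Mest, Peg3 and Snrpn fell, where 0.0687% of all genes were called. Mest, Peg3 and Snrpn also rose in Igf2-labelled against parthenogenetic cells, where 0.607% of all genes were called. There 7 of the 11 were higher and 4 lower by their means. Mest and Peg3 were not above background in parthenogenetic cells. All 3 were still called lower in Igf2-labelled than in normal cells, with differences of -2.31 (Mest), -2.31 (Peg3) and -1.83 (Snrpn). In that comparison 1.03% of all genes were called. In H19-labelled against parthenogenetic cells Ddc (difference 1.07) and Slc38a4 (0.94) rose and Inpp5f (-0.71) fell. There 5 of the 11 were higher and 6 lower by their means, and 4.24% of all genes were called.

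Placental and regulatory genes tied to the cluster were listed as well. Of 15 trophoblast genes 7 were measured. In H19-labelled against parthenogenetic cells 3 of the 7 were higher and 4 lower by their means, with a median of -0.05. Only the simple-epithelium keratin genes Krt8 and Krt18 were called, where 4.24% of all genes were called. They fell by 1.82 (limma adjusted p = 0.00263) and 1.34 (adjusted p = 0.0157). Krt8 also fell by 0.80 in Igf2-labelled against parthenogenetic cells (adjusted p = 0.0337). Of 15 factors that set or read imprints or belong to Polycomb 12 were measured, and in H19-labelled against parthenogenetic cells only Ezh2, the histone methyltransferase of Polycomb, was called, at 13.19 in H19-labelled cells against 12.29 in parthenogenetic cells (difference 0.90, adjusted p = 0.0352).

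The genes whose log2 levels over the 8 arrays were most like those of Cdkn1c, among 8732 others, were Celf4 (Pearson r = 0.953), Atp10a (0.951), Stard10 (0.928), Spred3 (0.925) and Crmp1 (0.924). The points share the same 8 arrays and fall into 4 groups, so these values describe the likeness only. Within the cluster Phlda2 was the gene most like Cdkn1c (r = 0.825, 93rd of 8732), followed by Slc22a18 (0.640, 610th), and Tspan32 had an r of -0.642, with 4 of its 8 values not above background. Igf2, the neighbouring growth factor gene, had an r of 0.04 with Cdkn1c.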

How the data were processed

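Illumina bead arrays were run on RNA of 8 mouse ES cell samples, and samples were grouped and numbered by their titles. Per the file headers, the authors deposited an intensity and a detection p-value for each probe and array; array medians differed and the lowest intensity was 52.07, so the values had been neither scaled between arrays nor background subtracted as far as they show. The authors' deposited log2 table holds 12690 probes, exactly those detected on at least 4 arrays, each array with a median of 9.55. How it was normalized is not stated in these sources.

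For this report neqc of limma 3.58.1 (R 4.3.3) corrected background (offset 16), quantile normalized and took log2. The 12932 probes detected on each array of at least 1 group entered a linear model with 4 group means over 8 arrays (lmFit, then eBayes; residual df 4, prior df 2.81). The 6 contrasts were adjusted by Benjamini-Hochberg over these probes. The step was checked on simulated data that gave every group the same spread. That check therefore does not cover the wider spread of the normal arrays. The platform annotation named 11960 probes and left 13737 unnamed here, 997 of them tested. In lists, each gene is its probe with the highest mean. "At least" folds use, per array of the group below background, the probe's own value or that of the dimmest detected probe, whichever was higher. Members, the 13 other lists and tests were chosen with earlier results of these data known. All members and listed distal chromosome 7 genes are named, as are the 5 genes most like Cdkn1c. Of each other list, called genes are named for some comparisons only, up to 4 in each. A listed gene that is not named for a comparison may therefore have been called in it. Single markers, and the cyclin-dependent kinase inhibitors and paternally expressed genes that were not called, were added after they were seen. Columns of sample values left unassigned numbered 0. With 2 arrays a group, precision is limited.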

Additional observations from a re-analysis of the deposited data

How the results depend on the processing

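Of 891 values of the 9 probes over 6 comparisons and the alternatives run (background correction, detection filter, the authors' log2 table, the arrays and the prior in the fit, the replicate block, and each array left out), 803 kept their direction and side of the threshold, 49 newly passed it in the same direction, 6 no longer passed it and 33 changed sign. Of the 33, 2 passed the threshold with the new sign, both of Phlda2 against normal cells. All 33 sign changes and all 6 losses came from leaving out 1 array. The differences of Cdkn1c, Phlda2 and Slc22a18 from parthenogenetic cells, and those of parthenogenetic from normal cells, kept their sign under every alternative run. With only the groups compared in the fit, the cluster probes called numbered 4 for H19-labelled against parthenogenetic, 2 for Igf2-labelled against parthenogenetic and 1 for H19-labelled against Igf2-labelled cells, where 31.2%, 6.76% and 17.6% of all probes were called. Without both normal arrays they numbered 6, 2 and 2, where 33.2%, 9.7% and 20.6% of all probes were called. Leaving out 1 array at a time gave 0 to 6 calls for H19-labelled against parthenogenetic, 0 to 2 for Igf2-labelled against parthenogenetic, 0 to 2 for H19-labelled against Igf2-labelled, 0 to 4 for parthenogenetic against normal, 0 to 3 for Igf2-labelled against normal and 0 to 4 for H19-labelled against normal cells. The share of all probes called in these fits was 0% to 33.2%, 0.0155% to 9.7%, 0% to 20.6%, 0.0232% to 40.2%, 0.0155% to 41% and 0.278% to 30.6% in the same order, and every call of a cluster probe in them came with a normal array left out. Over all probes, calls in H19-labelled against parthenogenetic cells numbered 563 as reported, 4039 with only the groups compared and 4288 without both normal arrays; without 1 array of another group they numbered 0 to 101. The replicate block left 314, changed no call of a cluster probe and gave Cdkn1c an adjusted p of 0.0408; deviations of same-numbered arrays correlated at -0.03 to 0.17 between groups, so the numbers were not taken as pairs.

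The log2 differences that changed sign with 1 array left out had these ranges. For H19-labelled against parthenogenetic cells the range was -0.11 to 0.042 for Nap1l4 and -0.18 to 0.029 for Tssc4 (ILMN_2460043). For Igf2-labelled against parthenogenetic cells the range was -0.078 to 0.45 for Ascl2 and -0.13 to 0.081 for Tssc4 (ILMN_2460043). For H19-labelled against Igf2-labelled cells the range was -0.011 to 0.10 for Nap1l4, -0.011 to 0.35 for Tspan32, -0.15 to 0.043 for Tssc4 (ILMN_2460043) and -0.22 to 0.046 for Tssc4 (ILMN_2501601). For parthenogenetic against normal cells the range was -0.31 to 0.47 for Ascl2, -0.030 to 0.13 for Nap1l4, -0.23 to 0.15 for Tspan32 and -0.024 to 0.18 for Tssc4 (ILMN_2460043). For Igf2-labelled against normal cells the range was -0.13 to 0.66 for Ascl2, -0.056 to 0.52 for Cd81, -0.55 to 0.24 for Cdkn1c, -0.11 to 0.049 for Nap1l4, -1.01 to 0.75 for Phlda2, -0.039 to 0.15 for Tssc4 (ILMN_2460043) and -0.0034 to 0.20 for Tssc4 (ILMN_2501601). For H19-labelled against normal cells the range was -0.33 to 0.25 for Cd81, -0.064 to 0.094 for Nap1l4, -0.81 to 0.95 for Phlda2, -0.080 to 0.59 for Slc22a18, -0.047 to 0.056 for Tssc4 (ILMN_2460043) and -0.12 to 0.15 for Tssc4 (ILMN_2501601). The cause of these changes was not tested. Ascl2 and Tspan32 are limited by signal near background, and 2 arrays per group limit every call.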
